A study of Mus musculus with 4 samples.

Results

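This account concerns 41 genes of the mouse ciliary transport and gating machinery, measured cell by cell in the trachea. They are the intraflagellar transport (IFT) trains, the retrograde dynein-2 motor, the BBSome with its chaperonins, and the transition zone. The genes were chosen by name from known function, and 41 of the 42 names matched exactly 1 of the 30907 features counted in every library. The other name, Tctn2, was not analysed here. By role, 14 genes belong to the IFT-B complex, 6 to IFT-A, 4 to dynein-2, 8 to the BBSome and BBS chaperonins, and 9 to the transition zone.

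Cells came from the tracheas of 2 adult wild-type mice whose airway surface was injured with 2% polidocanol, a detergent, and which received 6000000 cells into the trachea 5 hours later. One recipient, labelled 129 X1/S1, received iBCs, which are basal cells derived from mouse embryonic stem cells, and was examined 192 days later. The other, labelled C57BL/6, received primary basal cells (primary BCs) and was examined 69 days later. From each pronase-digested trachea, Calcein Blue-positive live cells were sorted into a GFP+ library of donor-derived cells and a GFP- library of endogenous cells. All 4 libraries, 1 per group, were made on the 10X Chromium system and hold counts of unique molecular identifiers (UMIs). All groups thus shared the injury and a transplantation, and the uninjured control trachea of the study is not used here. The libraries are called iBC-derived and iBC-endogenous, and BC-derived and BC-endogenous, after the recipient and the origin of the cells. Donor kind, interval, strain label and animal differ together between the recipients and cannot be told apart. With 1 library per group there is no replicate, no test across samples and no p-value below, and every interval covers counting error only.

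A motile or primary cilium is built and maintained by trains that run along its microtubules. IFT-B carries building blocks toward the tip with kinesin-2, and IFT-A with dynein-2 carries material back. The BBSome is an adaptor that rides on these trains and removes membrane proteins, and the transition zone is the gate at the base. Basal, secretory and many other cell types can bear a single primary cilium, whereas ciliated airway cells bear many motile ones, whose axonemes also need dynein arms, radial spokes and tektins.

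A total of 6542 cells were kept, namely 1576 iBC-derived, 1807 iBC-endogenous, 1805 BC-derived and 1354 BC-endogenous cells. The 4 libraries held 21504563 to 26625123 UMIs. A cell was taken as ciliated where Foxj1, Ccdc153, Dynlrb2 and Fam183b, none of them among the 41 genes, together reached 20 UMIs per 10,000. This gave 262 iBC-derived, 338 iBC-endogenous, 161 BC-derived and 201 BC-endogenous ciliated cells. Their median depth was 11851, 12112, 17331 and 19216 UMIs in the same libraries. Levels are given as CPM, UMIs per 1000000 UMIs of the same cells. The EGFP reporter stood at 65.4 CPM in the iBC-derived library against 0.0917 CPM in its endogenous partner, and at 608 CPM in the BC-derived library against 9.71 CPM in its partner. Ciliated markers outside the rule summed to 8853 to 10954 CPM in ciliated cells against 426 to 644 CPM in other cells. Secretory markers summed to 19666 to 30041 CPM in ciliated cells against 111886 to 233397 CPM in other cells. Basal markers summed to 32.3 to 162 CPM in ciliated cells against 4273 to 8269 CPM in other cells. Ptprc, Cd3e, Col1a1 and Col1a2, which define leukocytes, T cells and fibroblasts, were at 0 in the ciliated cells of every library. Col1a1 and Col1a2 were also at 0 in other cells of both donor-derived libraries, and Ptprc and Cd3e in iBC-derived other cells. The remaining fibroblast marker, Dcn, brought that list to 0.47 to 3.70 CPM in ciliated cells against 246 to 291 CPM in other cells. The remaining immune markers differed between libraries: the list of 4, which in ciliated cells held UMIs of Lyz2 and, in the BC-derived library, of Cd52, summed to 155 CPM in iBC-derived, 4393 in iBC-endogenous, 4718 in BC-derived and 2539 in BC-endogenous ciliated cells. In other cells that list summed to 380 CPM in iBC-derived, 3902 in iBC-endogenous, 3513 in BC-derived and 6436 in BC-endogenous cells. Its sum was thus higher in ciliated than in other cells of the iBC-endogenous and BC-derived libraries. The part of RNA of the secretory and immune lists in the results below was not tested. The iBC-derived library shared 1 cell barcode with each library of the other recipient.

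Regulatory factor X (RFX) proteins bind a motif called the X-box in the promoters of ciliary genes. The 6 letters GTTGCC, here called the hexamer, can form a side of it. They were searched on both strands of 300-base RefSeq promoter windows (build GRCm38.p6, 250 bases before to 50 after the start). The hexamer occurred in 18 of the 36 genes that had a window, which is 50%. It occurred in 16.5% of 6901 other genes with at least 10 CPM in ciliated cells, and in 14.1% of all 27025 genes. Median GC content was 58.3% in the windows of the 41 genes against 61% in the windows of those other genes. A full X-box consensus, which can contain the hexamer, occurred in 4 of the 36 genes (11.1%), 2.56% of the other genes and 2.15% of all genes. The consensus matches in those 4 genes, Bbs12, Cluap1, Dync2h1 and Wdr34, did not contain the hexamer. No window was available for Ift80, Ift81, Ift122, Dync2li1 and Tmem67. The 6 stretches below show where the hexamer lies in genes of different roles. They are those in which a stretch placed around the nearest hexamer before the start lay wholly before both the RefSeq start and the annotated gene. Each line gives 60 bases, 5′ to 3′ in the direction of transcription, with the hexamer in capitals on whichever strand it was found.
Traf3ip1 (IFT-B), chr1:91494562-91494621, plus strand: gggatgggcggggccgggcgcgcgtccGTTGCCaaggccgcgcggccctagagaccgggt
Ift140 (IFT-A), chr17:25015950-25016009, plus strand: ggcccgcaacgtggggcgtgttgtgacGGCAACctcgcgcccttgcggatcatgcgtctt
Bbs7 (BBSome), chr3:36613478-36613537, minus strand: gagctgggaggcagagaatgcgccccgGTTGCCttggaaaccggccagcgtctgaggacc
Mks1 (transition zone), chr11:87853155-87853214, plus strand: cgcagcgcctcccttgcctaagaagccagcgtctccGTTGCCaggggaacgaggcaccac
Tctn3 (transition zone), chr19:40612339-40612398, minus strand: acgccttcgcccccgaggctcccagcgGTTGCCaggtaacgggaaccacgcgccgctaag
Tmem231 (transition zone), chr8:111933885-111933944, minus strand: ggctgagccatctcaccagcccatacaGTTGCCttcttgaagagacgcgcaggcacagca
The hexamer began 79 bases before the start in Traf3ip1, 109 in Ift140, 121 in Bbs7, 24 in Mks1, 140 in Tctn3 and 104 in Tmem231. In Ift140 it was on the opposite strand. The Tmem231 window held a further hexamer, which began 11 bases after the start. These matches are a description of letters, and binding was not measured.

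The first comparison asked how far the machinery was concentrated in ciliated cells. Of the 41 genes, 38 were at least 2-fold higher in ciliated than in other cells of all 4 libraries, with a counting interval that excluded 1, and 40 were so in at least 1 library. Over all features tested, the same rule called 23.1%, 28.3%, 23% and 24.6% higher, in the iBC-derived, iBC-endogenous, BC-derived and BC-endogenous libraries in turn. None of the 41 genes was 2-fold lower, where 10.5%, 7.95%, 11.6% and 11.1% of features were. The median over the 41 genes of their median fold was 11.1. On the log2 scale with 5 CPM added, the median difference of the 41 genes was 2.80, 2.65, 2.69 and 2.83. Over all features tested it was 0.20, 0.40, 0.16 and 0.25, so the 41 genes stood well above the general shift in each library.

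**Figure D1:**
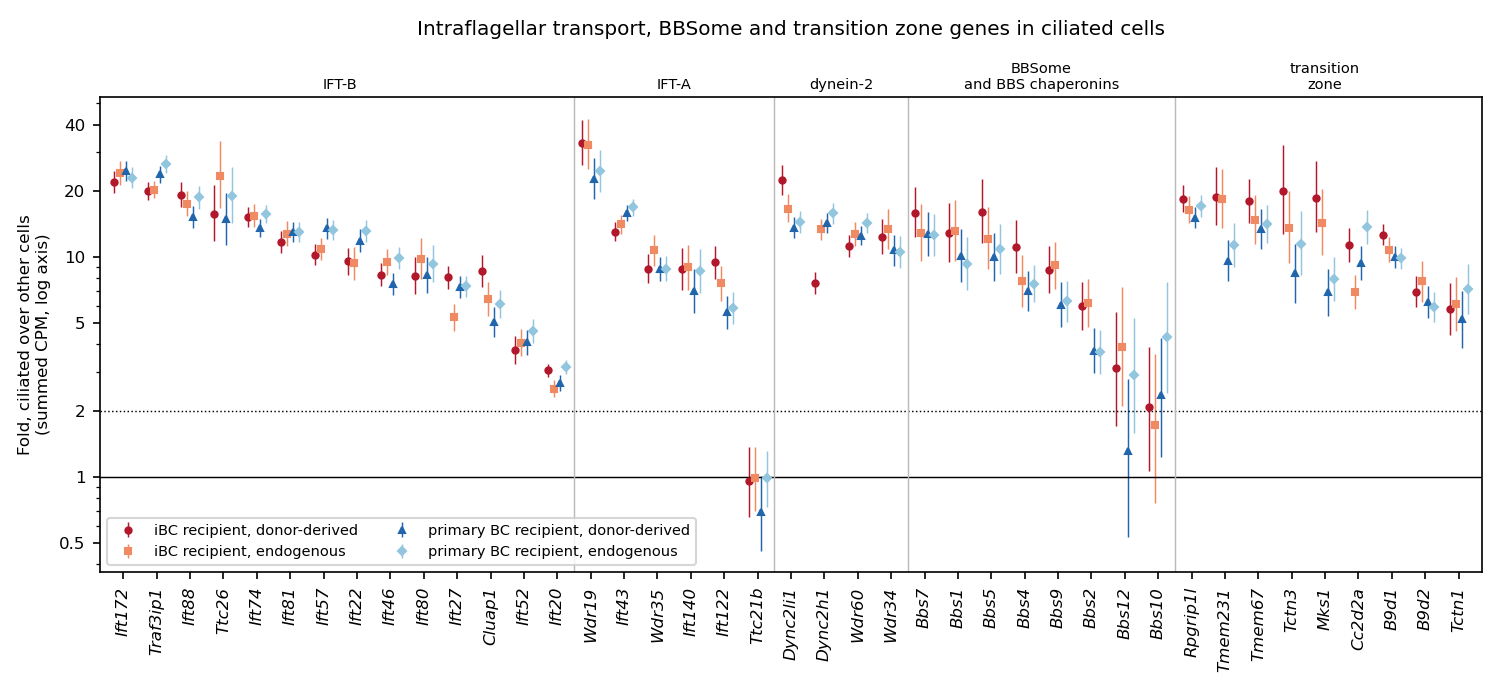
Fold of each gene's summed CPM in ciliated over other cells of the same library (log axis), with 95% counting intervals, grouped by role and ordered by median fold. The 4 markers of a gene are the 4 libraries, and the dotted line is 2-fold. Wdr19 has the highest median fold, 28.5, and Ttc21b lies below 1 in all 4 libraries, at 0.69 to 0.99.

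Within IFT-B, all 14 genes were past 2-fold in every library, with a median of 11.4 and gene medians of 2.86 to 23.5. Ift172, a large IFT-B subunit (chr5:31253277-31291116), had 445, 449, 509 and 463 CPM in ciliated cells against 20.3, 18.7, 20.6 and 20.1 CPM in other cells of the same libraries, in the iBC-derived, iBC-endogenous, BC-derived and BC-endogenous libraries in turn. Its folds of 21.9 to 24.7 were among the most even. Traf3ip1 (chr1:91494647-91529307), whose product is the IFT-B subunit IFT54, had 683, 733, 692 and 688 CPM in ciliated cells against 34.2, 36.2, 29 and 26 CPM in other cells. Ift88, a core subunit whose loss abolishes cilia in mice, had folds of 15.3 to 19.2, and its level in ciliated cells spanned only 296 to 307 CPM. Ift20 (chr11:78536361-78541737) had the lowest median fold of the complex, 2.86, with 379, 197, 257 and 300 CPM in ciliated cells against 125, 78.4, 96.2 and 94.7 CPM in other cells. Ift20 is known to act at the Golgi as well as in the cilium. With every cell thinned to 5000 UMIs, an Ift20 UMI was found in 55.9% to 81.0% of ciliated cells against 33.1% to 46.7% of other cells, whereas the shares without thinning were 88.2% to 97.7% against 56.2% to 74.5%.

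IFT-A held both extremes. Wdr19 (chr5:65199696-65260415), which encodes the core subunit IFT144, had 156, 127, 120 and 123 CPM in ciliated cells against 4.73, 3.93, 5.29 and 5.01 CPM in other cells, in the iBC-derived, iBC-endogenous, BC-derived and BC-endogenous libraries in turn. Its folds were 33, 32.5, 22.7 and 24.5, higher in both libraries of the iBC recipient. Ift43, a small peripheral subunit, and Wdr35, a subunit also called IFT121, had median folds of 14.9 and 8.85. Ttc21b (chr2:66184327-66256617), which encodes the subunit IFT139, was the 1 gene that passed 2-fold in no library. It had 11.0, 10.8, 10.1 and 14.1 CPM in ciliated cells, from 38, 46, 30 and 59 UMIs, against 11.5, 11.0, 14.5 and 14.3 CPM in other cells. The folds were 0.69 to 0.99, and the 4 intervals ran from 0.46 at the lowest to 1.37 at the highest, so that a 2-fold higher level in ciliated cells lay outside all of them.

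All 4 dynein-2 genes were past 2-fold in every library, with a median of 13.2. Dync2li1, the light intermediate chain, had the highest median fold, 15.5, with 22.4 in the iBC-derived and 13.6 in the BC-derived library. Wdr60 and Wdr34, the intermediate chains, had median folds of 12.6 and 11.6. Dync2h1 (chr9:6928503-7184446), the heavy chain and motor itself, had folds of 7.59, 13.4, 14.2 and 15.8, in the iBC-derived, iBC-endogenous, BC-derived and BC-endogenous libraries in turn, and the first stood apart below the other 3.

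Among the BBSome and BBS chaperonin genes the median fold was 7.59, and 6 of 8 were past 2-fold in all 4 libraries. Bbs7, Bbs1 and Bbs5, which encode BBSome subunits, had the highest median folds, 12.7, 11.5 and 11.4. Bbs1 had 38.6 to 44.3 CPM in ciliated cells against 3.20 to 4.16 CPM in other cells. Bbs10 and Bbs12, which encode chaperonin-like proteins needed to assemble the BBSome, had few UMIs. Bbs10 had 15, 11, 15 and 25 UMIs in all ciliated cells of a library and folds of 2.09, 1.72, 2.35 and 4.32, in the iBC-derived, iBC-endogenous, BC-derived and BC-endogenous libraries in turn. Bbs12 had 20, 23, 8 and 20 UMIs and folds of 3.12, 3.90, 1.31 and 2.92. Each passed 2-fold in 3 of 4 libraries, and their intervals are wide in the plot of folds by gene.

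All 9 transition zone genes were past 2-fold in every library, with a median of 11.1. Rpgrip1l, a scaffold that organises the zone, had 260, 240, 332 and 345 CPM in ciliated cells against 14.1, 14.6, 22.0 and 20.2 CPM in other cells, in the iBC-derived, iBC-endogenous, BC-derived and BC-endogenous libraries in turn. Tmem231 and Tmem67, membrane proteins of the gate, had median folds of 14.8 and 14.5. Tctn1, a tectonic, had the lowest median fold, 5.95, with 33.9, 30.6, 25.5 and 36.2 CPM in ciliated cells against 5.85, 5.01, 4.90 and 5.06 CPM in other cells.

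Detection per cell followed the depth of the library as well as the level. Without thinning, the median gene had a UMI in 69.8%, 62.4%, 72.7% and 84.6% of ciliated cells against 13.8%, 11.2%, 17.4% and 19.1% of other cells, in the iBC-derived, iBC-endogenous, BC-derived and BC-endogenous libraries in turn. At 5000 UMIs per cell these medians were 42.2%, 35%, 37.9% and 40.3% of ciliated cells against 5.97%, 5.68%, 6.81% and 5.57% of other cells. Thinning left out at most 7 ciliated and 96 other cells of a library as too shallow.

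The other cells were not empty of these genes. In other cells the median gene stood at 8.92%, 9.18%, 10.4% and 9.53% of its ciliated-cell level, in the iBC-derived, iBC-endogenous, BC-derived and BC-endogenous libraries in turn. The 6 ciliated markers outside the rule spanned a wide range by the same measure. Rsph1, Tmem212 and Pifo stood at 0.25% to 1.35% over the 4 libraries, and all 41 genes were above all 3 in every library. Sntn stood at 0.236% to 1.17%, Tppp3 at 1.89% to 6.35% and Sec14l3 at 8.73% to 16.8%. Of the 41 genes, 41, 41, 37 and 38 were above Tppp3, but only 22, 10, 9 and 10 were above Sec14l3. The part of ciliated RNA in these levels was not tested. In cells with no UMI of the 4 rule genes, the 41 genes summed to 638, 493, 661 and 621 CPM, and every gene was counted in every library.

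The summed level was followed along the score that defines ciliated cells. Cells with a score of 0 and those above 0 but under 5 had sums between 493 and 721 CPM. The few cells between 5 and 20 had 2567, 4256, 3908 and 3290 CPM, from 8, 31, 9 and 12 cells, in the iBC-derived, iBC-endogenous, BC-derived and BC-endogenous libraries in turn. Between 20 and 50 the sums were 6346, 5918, 6829 and 6863 CPM, and between 50 and 100 they were 7532, 6298, 7545 and 7711 CPM. The iBC-endogenous library was the highest of the 4 between 5 and 20 and the lowest in both bins above the threshold. Just outside the threshold, at scores of 15 to 20, sums over 4, 16, 5 and 4 cells were 2802, 5260, 4550 and 4091 CPM. Just inside, at 20 to 25, sums over 8, 28, 3 and 7 cells were 4261, 5076, 6673 and 5049 CPM.

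**Figure D2:**
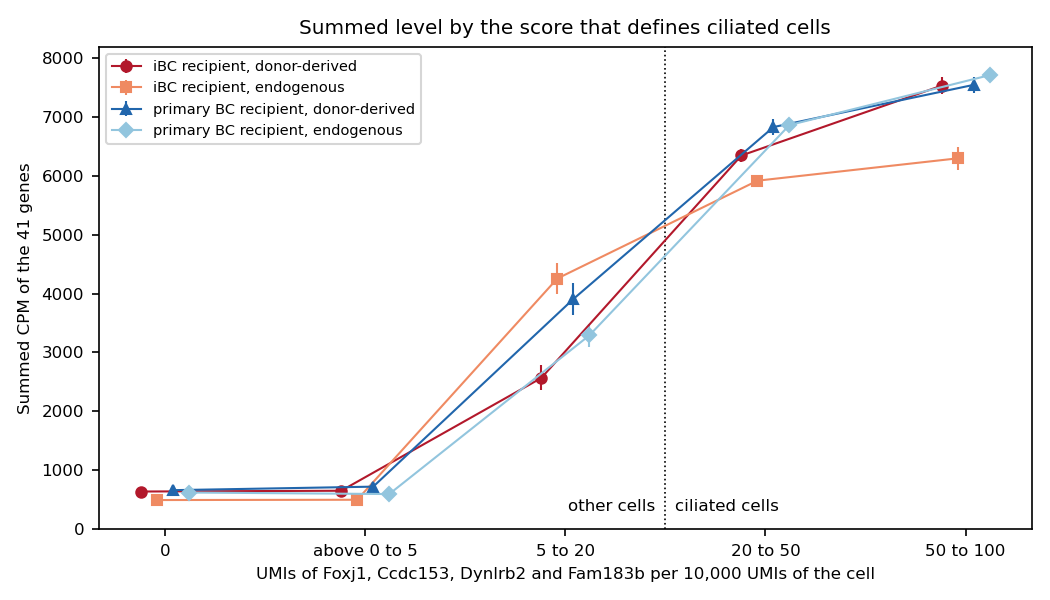
Summed CPM of the 41 genes in cells binned by the 4-gene score (UMIs per 10,000), with 95% Poisson intervals, 1 line per library; the dotted line is the threshold of 20. Sums lie between 493 and 721 CPM in the 2 lowest bins and between 5918 and 7711 CPM above the threshold.

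Other genes of the pathway were read from lists chosen for their function. Of 33 such genes, which cover further IFT-B subunits, kinesin-2, dynein-2 light chains, further BBSome and transition zone genes and ciliary GTPases, 29, 28, 28 and 29 were past 2-fold, in the iBC-derived, iBC-endogenous, BC-derived and BC-endogenous libraries in turn. Their median log2 difference was 2.42, 2.15, 2.29 and 2.40. The kinesin-2 genes Kif3a and Kif3b, which drive anterograde trains, had folds of 10.2 to 14.4 and 3.40 to 4.72. Mkks, another BBS chaperonin, had folds of 0.95 to 1.25, and the dynein light chains Dynlrb1 and Dynll2, which also serve cytoplasmic dynein, had 1.12 to 1.63 and 1.12 to 1.67. Ttc30a1, Ttc30a2 and Ttc30b are near-identical copies, and their separate values are uncertain. For 29 axonemal genes the median log2 difference was 4.80, 4.87, 5.42 and 5.51, and for 26 Cfap genes it was 4.65, 4.29, 4.71 and 4.89, with all 29 and 25 of the 26 past 2-fold in each library. Both medians were above that of the 41 genes in each of the 4 libraries.

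The next contrast set donor-derived against endogenous ciliated cells of the same trachea. In the iBC recipient, 6 of the 41 genes were at least 1.5-fold higher in donor-derived ciliated cells and 1 was at least 1.5-fold lower, with counting intervals that excluded 1. Over all features tested, 10.6% were higher and 8.82% were lower by the same rule, and the counts of 6 and 1 among 41 are of that order. The summed level of the 41 genes was 6850 CPM in iBC-derived ciliated cells, against 5977 CPM in iBC-endogenous ones. Their median log2 difference was 0.18, against 0.08 over all features tested.

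Of the 6, 3 belong to IFT-B. Ift20 had 379 CPM in iBC-derived and 197 CPM in iBC-endogenous ciliated cells, and 257 CPM in BC-derived and 300 CPM in BC-endogenous ones. The iBC-derived library was the highest of the 4 and its endogenous partner the lowest, and the fold between them was 1.92 (95% interval 1.76 to 2.10). Ift27 (chr15:78159463-78174107), a small GTPase of the IFT-B train that is needed for BBSome exit from cilia, had 199 CPM in iBC-derived, 107 in iBC-endogenous, 201 in BC-derived and 200 in BC-endogenous ciliated cells, with a fold of 1.86 (1.65 to 2.10) in the iBC recipient. Here the iBC-endogenous library stood alone below 3 that were nearly equal. Ift22 (chr5:136908150-136915404), another small GTPase-like subunit, had 162 CPM in iBC-derived, 108 in iBC-endogenous, 239 in BC-derived and 262 in BC-endogenous ciliated cells. Its fold of 1.502 (1.33 to 1.70) lay at the limit, and both libraries of the iBC recipient were below both of the primary BC recipient.

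The other 3 were a BBSome subunit and 2 transition zone genes. Bbs7 (chr3:36573142-36613477) had 69.8 CPM in iBC-derived, 46.4 in iBC-endogenous, 68.2 in BC-derived and 72.5 in BC-endogenous ciliated cells, with a fold of 1.51 (1.24 to 1.83) in the iBC recipient. B9d1 (chr11:61505144-61512931) had 309 CPM in iBC-derived, 198 in iBC-endogenous, 232 in BC-derived and 238 in BC-endogenous ciliated cells, with a fold of 1.56 (1.42 to 1.71). B9d2 (chr7:25680780-25686558) had 106 CPM in iBC-derived, 63.6 in iBC-endogenous, 88.1 in BC-derived and 84.9 in BC-endogenous ciliated cells, with a fold of 1.66 (1.42 to 1.95). B9d1 and B9d2 encode B9-domain proteins that bind each other in the gate complex. In all 3 genes the iBC-endogenous library was the lowest of the 4.

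Dync2h1 was the 1 gene lower in iBC-derived ciliated cells. It had 212 CPM there and 335 CPM in iBC-endogenous ciliated cells, and 360 CPM in BC-derived and 366 CPM in BC-endogenous ones. The iBC-derived library stood apart below the other 3, and the fold was 0.63 (0.58 to 0.69). The other dynein-2 genes had folds above 1: Wdr34 had 1.27, and Wdr60 and Dync2li1 had 1.13. At 5000 UMIs per cell, a Dync2h1 UMI was found in 57.4% of iBC-derived against 77.6% of iBC-endogenous ciliated cells, and in 82.6% in both libraries of the other recipient. In other cells Dync2h1 had 27.9 CPM in the iBC-derived and 25.1 CPM in the iBC-endogenous library, a fold of 1.11 (0.98 to 1.27).

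**Figure D3:**
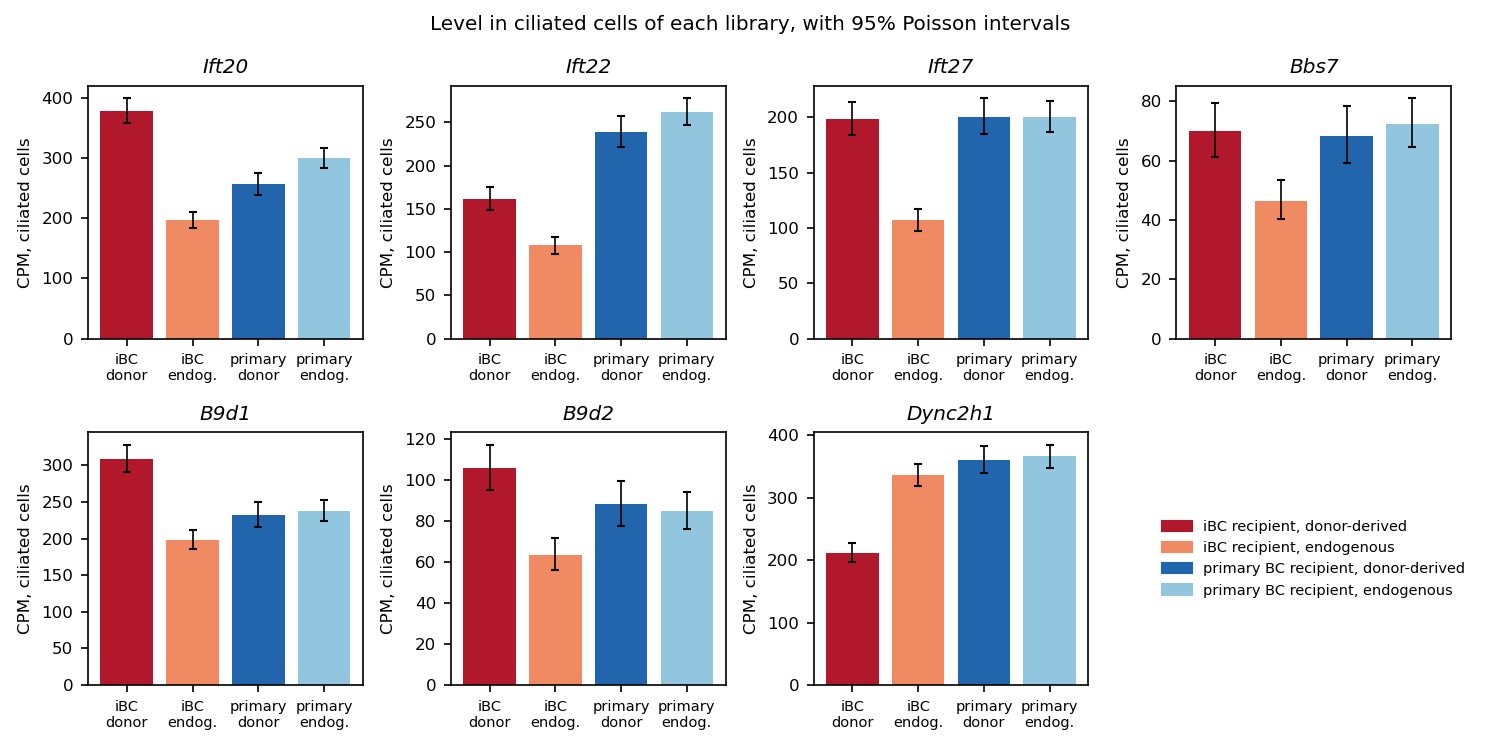
CPM in ciliated cells of the 4 libraries for the 7 genes past 1.5-fold between donor-derived and endogenous ciliated cells of the iBC recipient; bars are 1 library each and error bars are 95% Poisson intervals. The iBC-endogenous library is the lowest bar in the 6 genes other than Dync2h1, in which the iBC-derived library is the lowest, at 212 CPM.

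The calls of 3 genes depend on scaling. With TMM factors, which move the median of all features in this contrast from 0.08 to -0.01, 3 genes were past 1.5-fold higher, namely Ift20, Ift27 and B9d2, and Ift22, Bbs7 and B9d1 had folds of 1.40, 1.40 and 1.45. The folds of the 34 genes not called ran from 0.90 in Tctn3 to 1.68 in Bbs10, which had 15 and 11 UMIs and an interval of 0.72 to 4.04. A further 4 genes, Tmem67, Cluap1, Cc2d2a and Ift122, lay between 1.34 and 1.44 and were named after their values were seen. Cc2d2a passed the limit with scores of at least 40, at 1.505, and Tmem67 with other ciliated genes in the score, at 1.503. At the other end Traf3ip1, Ift172 and Ift88 had folds of 0.93 (0.88 to 0.98), 0.99 (0.93 to 1.06) and 1.03 (0.95 to 1.12).

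**Figure D4:**
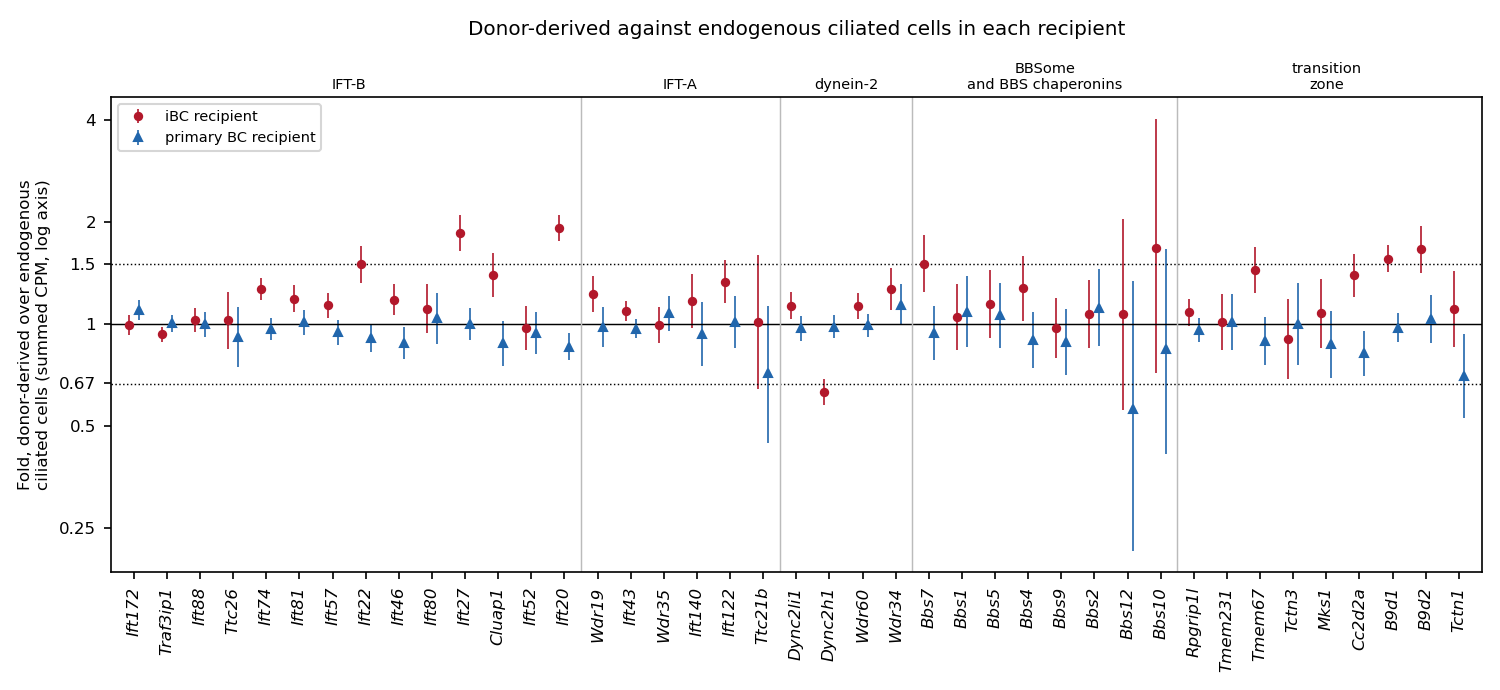
Fold of summed CPM in donor-derived over endogenous ciliated cells for each gene (log axis), with 95% counting intervals, in the iBC recipient and the primary BC recipient; dotted lines are 1.5-fold either way. In the iBC recipient 6 called genes are past the upper line, as is Bbs10 with an interval that includes 1, and Dync2h1 is past the lower one; in the primary BC recipient no gene is called, and the lowest point, Bbs12 at 0.56, rests on 8 and 20 UMIs.

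In the primary BC recipient none of the 41 genes was past 1.5-fold in either direction with an interval that excluded 1. Over all features tested, 1.82% were higher and 1.79% were lower. The summed level was 7180 CPM in BC-derived ciliated cells, against 7357 CPM in BC-endogenous ones, and folds ran from 0.56 to 1.14. The median log2 difference was -0.04, against -0.03 over all features tested. For the 7 genes called in the iBC recipient the folds here were 0.86 in Ift20, 0.91 in Ift22, 1.001 in Ift27, 0.94 in Bbs7, 0.98 in B9d1, 1.04 in B9d2 and 0.98 in Dync2h1. The lowest fold on more than 50 UMIs in both libraries was 0.71 in Tctn1, with 25.5 CPM in BC-derived and 36.2 CPM in BC-endogenous ciliated cells (interval 0.53 to 0.93). With scores of at least 40, or with other ciliated genes in place of the 4 of the rule, Tctn1 had folds of 0.65 and 0.66 and was called lower. With CPM averaged over cells, a setting that has no interval, Bbs12, whose mean is below 10 CPM, was past the limit at 0.66.

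Of the other 33 pathway genes, 7 were higher and 1 was lower in donor-derived ciliated cells of the iBC recipient. Over all features tested there, 10.6% were higher and 8.82% were lower. None of the 33 was called in the primary BC recipient, where 1.82% and 1.79% of features were. The 4 further transition zone genes among the 7 were Tmem107, Tmem17, Tmem216 and Tmem237, with folds of 1.52, 1.501, 1.70 and 1.90. Tmem237 had 58.3 CPM in iBC-derived, 30.6 in iBC-endogenous, 43.0 in BC-derived and 47.0 in BC-endogenous ciliated cells. Arl13b, a ciliary membrane GTPase, had 212 CPM in iBC-derived, 122 in iBC-endogenous, 148 in BC-derived and 136 in BC-endogenous ciliated cells, with a fold of 1.73 in the iBC recipient. Inpp5e, a ciliary phosphoinositide phosphatase, and Bbip1, a small BBSome subunit, had folds of 1.79 and 1.68. Ttc30a1, one of the near-identical copies, was the lower one, at 0.62. The median log2 difference of the 33 genes was 0.22.

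The axonemal list was read in the same cells. Of 29 genes, none was higher and 9 were lower in donor-derived ciliated cells of the iBC recipient, with folds down to 0.012, and none was called in the primary BC recipient. The other 20 were not called, and 9 of the 29 had folds above 1, up to 1.41 in Dnaaf1. The median log2 difference of the list was -0.17. Over all features tested in the iBC recipient, 10.6% were higher and 8.82% were lower. Tekt1, a tektin of the doublet microtubules, had 9.27 CPM in iBC-derived against 338 CPM in iBC-endogenous ciliated cells, and 320 CPM in BC-derived against 376 CPM in BC-endogenous ones. Drc1, of the nexin-dynein regulatory complex, had 9.27 CPM in iBC-derived, 327 in iBC-endogenous, 255.8 in BC-derived and 292 in BC-endogenous ciliated cells. Dnah10, an inner-arm dynein heavy chain, had 4.64 CPM in iBC-derived, 143 in iBC-endogenous, 211 in BC-derived and 244 in BC-endogenous ciliated cells. In each of these 3 genes the iBC-derived library stood far below the other 3. Dnah7a and Dnah7b, which were also lower, are close copies, so their separate values are uncertain. The Lyz2-bearing immune list also differed between these cells, at 155 CPM in iBC-derived against 4393 CPM in iBC-endogenous ciliated cells, and its part was not tested. No fold of the 41 genes was below 0.63 in that recipient. Cfap genes gave 3 higher and 3 lower of 26, counts of the order of the shares over all features, with Cfap53 lowest at 0.42.

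**Figure D5:**
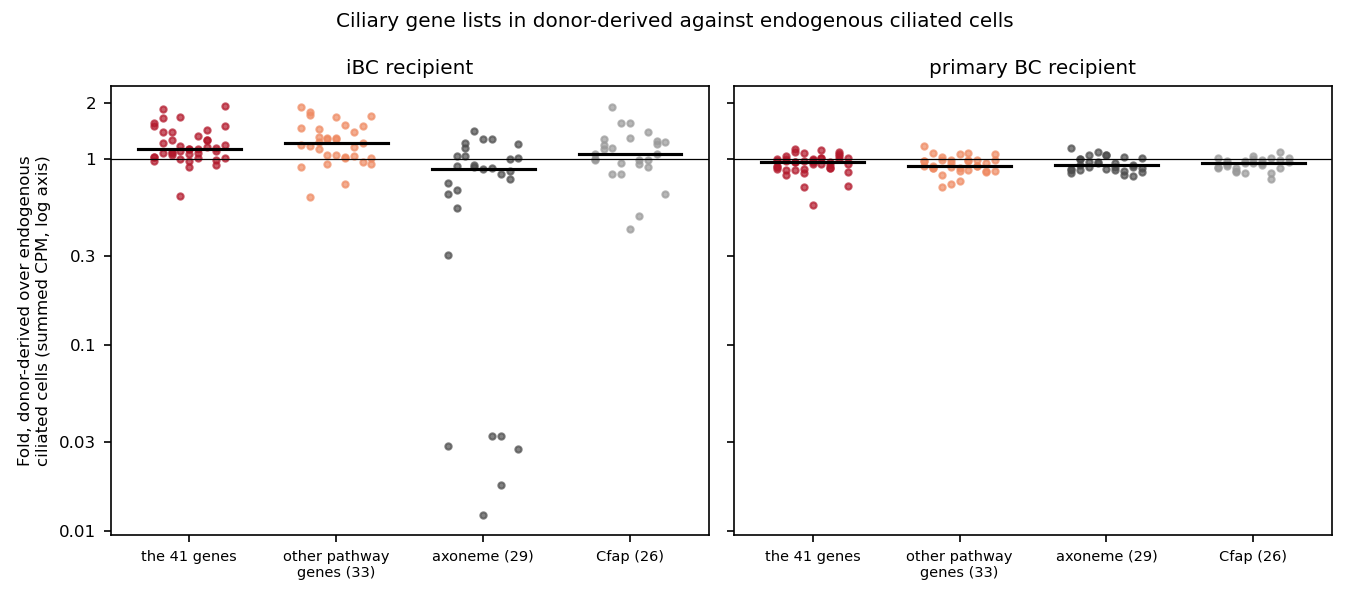
Fold of summed CPM in donor-derived over endogenous ciliated cells (log axis) for each gene of 4 lists, in the iBC recipient on the left and the primary BC recipient on the right; each dot is a gene and the bar is the list's median. In the iBC recipient 6 axonemal genes lie near or below 0.03, apart from all other dots, while the 41 genes lie between 0.63 and 1.92.

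Donor-derived ciliated cells of the iBC recipient were next set against those of the primary BC recipient. None of the 41 genes was higher and 1 was lower, Dync2h1, with 212 CPM in iBC-derived against 360 CPM in BC-derived cells and a fold of 0.59 (0.53 to 0.65). Over all features tested, 12.6% were higher and 11.3% were lower. The median log2 difference was -0.01, against 0.07 over all features tested. Ift20, with 379 against 257 CPM, came close to the limit at 1.48 and passed it under 3 of the alternatives tried, with folds of 1.51 to 1.71. Ift22, with 162 against 239 CPM and a fold of 0.68, was past it under TMM scaling, at 0.64. Of the 2 genes below a mean of 10 CPM, Bbs12 was called higher with other ciliated genes in the score, at 2.44. With CPM averaged over cells, which has no interval, Bbs12 was past the limit at 2.03 and Bbs10 at 0.66.

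Endogenous ciliated cells of the iBC recipient had lower levels than those of the primary BC recipient in 6 of the 41 genes and higher levels in none. Over all features tested, 9.94% were lower and 7.67% were higher. The 6 were Ift22 at 0.41 (0.37 to 0.46), Ift27 at 0.53 (0.47 to 0.60), Bbs4 at 0.57 (0.47 to 0.70), Bbs7 at 0.64 (0.53 to 0.77), Ift20 at 0.66 (0.60 to 0.72), and Bbs10 at 0.43 (0.19 to 0.92), the last from 11 and 25 UMIs. Bbs4, a BBSome subunit, had 38.9 CPM in iBC-endogenous against 67.7 CPM in BC-endogenous cells. The median log2 difference was -0.27, against -0.04 over all features tested. Ift20 was not past the limit under 5 of the alternatives tried, with folds of 0.67 to 0.77. This contrast shares its iBC-endogenous library with the contrast inside the iBC recipient, so the calls of the 2 contrasts do not add to each other.

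Among the 39 genes with a mean of at least 10 CPM over the ciliated cells of the 4 libraries, the iBC-endogenous library was the lowest in 24, or 61.5%, and it was the lowest in 30.6% of all such features. The same library was the highest in 3 of the 39, or 7.69%, against 19.5% of features. It also had the lowest median score of the rule genes, 39.8 per 10,000, against 49.3 in the iBC-derived, 49.99 in the BC-derived and 52.2 in the BC-endogenous library. The part of this lower score in the differences was not tested. With only cells at a score of 40 or more, Ift20, Ift27, B9d1 and B9d2 remained past 1.5-fold in the iBC recipient, and Ift22 and Bbs7 had folds of 1.43 and 1.37.

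Other cells were compared in the same way, a contrast added after the ciliated results were seen. In the iBC recipient 3 of the 41 genes were past 1.5-fold higher in donor-derived other cells and none was lower, where 15.4% of features were higher and 4.94% were lower. Ift20 had 125 CPM in iBC-derived against 78.4 CPM in iBC-endogenous other cells, a fold of 1.59 (1.48 to 1.70). B9d2 had 15.2 and 8.22 CPM, a fold of 1.85 (1.5 to 2.29), and Ttc26, an IFT-B subunit also called IFT56, had 3.60 and 2.36 CPM, a fold of 1.53 (1.011 to 2.34). The median log2 difference of all features tested was 0.24 in this contrast. With TMM factors, B9d2 alone remained past the limit, at 1.58, Ift20 and Ttc26 had folds of 1.35 and 1.30, and Tctn3 was called lower, at 0.52. The makeup of these cells also differed: secretory markers summed to 138694 CPM in iBC-derived against 233397 CPM in iBC-endogenous other cells, and the immune list to 380 CPM in iBC-derived against 3902 CPM in iBC-endogenous ones. Their part in the differences was not tested. In the primary BC recipient none of the 41 was called, where 1.21% of features were higher and 2.2% were lower.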

How the data were processed

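The authors deposited whole-number UMI counts per feature and cell barcode for 4 libraries. Cell Ranger, STARsolo, Seurat and the build GRCm38 are named in the submitters' processing notes, without their roles; versions, filters and strand use are not given in the sources used here. Exons of 7 of the 41 genes overlap another gene, 2 of them (Bbs12 and Cluap1) on the same strand, so their reads may be shared. Positions are from GENCODE vM21 on GRCm38.

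Cells with at least 500 genes and at most 20% mitochondrial UMIs were kept, and Scrublet (scanpy 1.11.5) calls were removed: 9, 44, 14 and 15 cells. It marked 0.57% to 2.38%. UMIs were summed over ciliated and over other cells of each library and scaled to CPM. Intervals are exact Poisson for levels and exact conditional for folds, at 95%. A gene was called past 2-fold (ciliated against other) or 1.5-fold (between libraries) where the interval excluded 1. The alternative with CPM averaged over cells has no interval, and its calls rest on the fold alone. Backgrounds and log2 medians of all features use those with a mean of at least 10 CPM, and 5 CPM is added before log2. TMM factors came from edgeR 4.0.16. The fold and interval code was tested on simulated counts.

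The genes, lists and tests were chosen with earlier results of these data known. The genes named are all those called in a donor-derived against endogenous contrast, the 3 highest and 1 lowest median folds of each role, and those under 50 UMIs in the ciliated cells of a library. Alternatives changed the cell filter, the score threshold, the genes of the score, the scaling, the pseudocount, the filter on low values and the treatment of cells with basal or secretory markers.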

Additional observations from a re-analysis of the deposited data

How the results depend on the processing

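Each group is 1 library, so no library could be left out and the spread between animals is unknown. No paired analysis was possible because the groups compared share fewer than 2 replicate numbers, with 1 library per group. Of 429 summary values recomputed under the alternatives, 375 kept their direction and size or call, and no median past its fold limit changed sign. The median of the genes between the donor-derived libraries, -0.01 and within its limit, was 0.01 to 0.05 under 5 alternatives. In ciliated against other cells, requiring a mean of 50 CPM left 25, 19, 23 and 23 of the genes past 2-fold (donor-derived and endogenous iBC, then donor-derived and endogenous primary BC), where 38 of the 39 passing 10 CPM were past it in each library, since fewer genes were tested. The median log2 difference over genes passing the filter was 2.82, 2.77, 2.73 and 2.85 as reported. It was 3.15, 3.37, 3.42 and 3.45 with that filter, 3.38, 3.36, 3.09 and 3.25 with 1 CPM added, and 2.15, 1.76, 1.93 and 2.09 with 20 CPM added. A score of at least 40 gave 2.56 and 2.12 in the iBC recipient and 2.51 in endogenous cells of the primary BC recipient. This setting counts cells with scores from 20 to 40 as other cells, which rose from 1469 to 1639 in the iBC-endogenous library. TMM scaling gave 2.56 and 2.39 in the iBC recipient. TMM moved the median of all features in the 4 libraries from 0.20, 0.40, 0.16 and 0.25 to -0.07, -0.01, -0.06 and -0.03. Under TMM Ift20 fell short of 2-fold in the endogenous iBC library, at 1.83. Bbs10 was short of 2-fold or had an interval including 1 in the donor-derived iBC library under 7 alternatives.

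Between donor-derived and endogenous ciliated cells of the iBC recipient, TMM left 3 genes higher in place of 6, and Bbs7 lost its call under 6 alternatives. In the primary BC recipient 1 gene, Tctn1, was lower with a score of at least 40 and 1 with other ciliated genes in the score, and Bbs12, below 10 CPM and so outside these counts, was lower at 0.66 with CPM averaged over cells. Between the donor-derived libraries, 2 genes were higher with a score of at least 40, 1 with other ciliated genes, 2 without ciliated cells holding 500 or more basal or secretory UMIs per 10,000, and 1 when CPM were averaged over cells, in place of 0, and TMM gave 2 lower in place of 1. Outside these counts, Bbs12 was higher at 2.44 and 2.03 and Bbs10 lower at 0.66, with no interval for 2.03 and 0.66. The limit of 500 was chosen after seeing the data, because the planned limit of 20 left 80, 1, 0 and 0 ciliated cells and gave a value in the donor-derived iBC library alone. Thinning to 5000 UMIs lowered the median share of cells with a UMI from 69.8%, 62.4%, 72.7% and 84.6% of ciliated cells to 42.2%, 35%, 37.9% and 40.3%, and from 13.8%, 11.2%, 17.4% and 19.1% of other cells to 5.97%, 5.68%, 6.81% and 5.57%. Apart from the effect of the 50 CPM filter, the cause of these changes was not tested. Depth limits Bbs10, Bbs12 and Ttc21b, each under 60 UMIs in the ciliated cells of every library.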

Other observations

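In the iBC recipient the difference between donor-derived and endogenous ciliated cells correlated negatively with annotated exonic length among these genes. The pattern was noticed in the data and is given as a description. Over the 39 genes passing the filter on low values, the log2 difference and the exonic length had a Pearson r of -0.45 and a Spearman rho of -0.31, across genes that share the same 2 libraries and are not replicates. Over 8719 features the values were -0.08 and -0.16. By quartile of exonic length over all features, shortest first, the median log2 differences of the 39 genes were 0.34, 0.09, 0.14 and 0.14. The shortest quartile thus stood apart, with no steady decline over the longer ones. Over all features the medians of the same quartiles were 0.18, 0.09, 0.06 and 0.02, also highest in the shortest. The 6 genes that were higher have exonic lengths of 1454 (B9d2), 1525 (Ift20), 1593 (B9d1), 2864 (Ift27), 3608 (Ift22) and 5390 bases (Bbs7), and Dync2h1, the 1 that was lower, is the longest at 16348 bases. Rpgrip1l, at 14688 bases, had a fold of 1.08. In the primary BC recipient r was -0.12 over the same 39 genes. For endogenous ciliated cells of the iBC against the primary BC recipient, a contrast that shares the iBC-endogenous library, r was 0.29. For iBC-derived against BC-derived ciliated cells, which shares the iBC-derived library, r was -0.10 and rho was 0.04.

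Of 11 listed regulators of the multiciliated state, 3 were higher and 2 were lower in donor-derived ciliated cells of the iBC recipient. Over all features tested, 10.6% were higher and 8.82% were lower. Ccno had 29.3 CPM in iBC-derived against 6.60 CPM in iBC-endogenous ciliated cells, and Gmnc had 3.48 CPM in iBC-derived against 34.6 CPM in iBC-endogenous ones. Ccno and Gmnc act early in the making of basal bodies or in the commitment to that fate. In other cells Ccno had 19.9 CPM in the iBC-derived and 13.2 CPM in the iBC-endogenous library. Its fold of ciliated over other cells was 1.47 and not called in the iBC-derived library. In the iBC-endogenous library that fold was 0.499, and Ccno was called lower in ciliated cells. In the primary BC recipient Ccno had 59.2 CPM in BC-derived and 105 CPM in BC-endogenous ciliated cells, and Gmnc had 37.3 and 25.5 CPM. None of the 11 was higher there and 3 were lower, where 1.82% and 1.79% of features were. Deup1 was called lower in both recipients, at 0.62 in the iBC and 0.59 in the primary BC recipient.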
